A study of Homo sapiens with 12 samples.

Results

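Untreated MM.1S cells were set against untreated 8226R5 cells, 2 human multiple myeloma lines that differ in p53 status, to describe how far their transcripts differed before any drug was given. The rule took the DMSO arrays of both lines, which gave 4 of the 12 arrays in the series, 2 for each line. MM.1S is labelled p53 wild type and 8226R5 p53 null, and both had been kept in DMSO, the solvent of the study drug, for 8 h. Another line, U266, labelled p53 mutant, had 2 DMSO arrays that entered the estimate of the spread and the detection filter and otherwise served as a point of comparison. The other 6 arrays held cells of the same 3 lines given PRIMA-1Met for the same 8 h, at 20 µM in MM.1S and at 40 µM in the other lines. RNA was read on Illumina HumanHT-12 arrays, and levels are the authors' quantile-normalized values on the log2 scale. Cells were seeded in duplicate wells per the labels, which name no separate cultures, so each p-value reflects only how far 2 samples of a line lay apart, a spread that may be technical. The second line is spelled 8266R5 in part of the labels.

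Myeloma is a cancer of plasma cells, the antibody-secreting end stage of the B lineage. Plasma cells switch off much of the B cell programme through PRDM1 and run a secretory programme through XBP1, with IRF4 needed for survival, and they carry surface proteins such as syndecan-1 (SDC1), CD38 and the BAFF receptor family member BCMA (TNFRSF17). In MAF-type myeloma a translocation places the transcription factor MAF under control of an immunoglobulin locus, and MAF is known to raise the cyclin CCND2, the integrin subunit ITGB7 and the chemokine receptor CCR1.

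The marker check went against the label of 8226R5 as a MAF-type myeloma line at MAF itself and at most plasma cell markers, though not at CCND2. All 9 plasma cell markers were above background (detection p under 0.01) on both MM.1S arrays, but 4 of 9 were on both arrays labelled 8226R5, and the other 5, TNFRSF17, CD38, IRF4, JCHAIN and SLAMF7, were on neither. Their summed level on the linear scale was 84593 and 92257 on the MM.1S arrays, against 2770 and 2655 on the arrays labelled 8226R5. The U266 arrays had 8 of the 9 and sums of 47147 and 45270. MAF itself was at 10.91 and 11.06 on the MM.1S arrays, against 5.80 and 5.54 on the arrays labelled 8226R5, where it was not above background. The other MAF-type markers, CCND2 and ITGB7, were above background on both arrays labelled 8226R5, CCND2 at 14.36 and 14.35 and ITGB7 at 6.95 and 7.07. Both were also above background in U266, where MAF was not, CCND2 at 12.94 and 12.90 and ITGB7 at 9.69 and 9.66. Detection of either therefore did not go with MAF here. The 3 together summed to 80396 and 79934 on the MM.1S arrays, 21197 and 21041 on the arrays labelled 8226R5 and 8735 and 8481 on the U266 arrays. On the arrays labelled 8226R5 nearly all of that sum was CCND2. The 5 T and NK cell markers summed to 254 and 264 on the MM.1S arrays, against 5815 and 5454 on the arrays labelled 8226R5. Of these 5, CD3D, CD3E, CD3G and NKG7 were above background on both arrays labelled 8226R5, while CD2 was not. Of 7 stromal, endothelial and epithelial markers, EPCAM and COL1A1 were above background on both arrays labelled 8226R5 and the other 5, the epithelial keratin KRT19 among them, on neither. MM.1S also carried markers of other cells that were on neither array labelled 8226R5: the myeloid SPI1 (7.07 and 7.03) and FCN1 (6.80 and 6.72), the endothelial PECAM1 (7.57 and 7.68), HBB (9.11 and 9.10) and PPBP (6.65 and 6.93). PECAM1 (7.49 and 7.45) and PPBP (6.56 and 6.70) were also above background on both U266 arrays. FCN1 and PPBP lay near 6.5 and 6.456, the lowest detected levels on the MM.1S arrays. None of the 4 measured markers in the B cell class was above background on both arrays of either line. The longer B cell list was different, with 6 of 7 tested members lower in MM.1S (85.7%) and 1 higher (14.3%), against 36.9% and 37.4% of all genes. Of 16 listed genes only those 7 passed the filter, 6 detected on the arrays labelled 8226R5 and 3 in MM.1S. A member can pass through the line where it is high, so these shares are no support for a direction. The median was -1.70, or -1.22 with the 5 members undetected in a single line at their bound. The kinase gene BLK was at 5.18 and 4.73 in MM.1S and 7.72 and 7.66 on the arrays labelled 8226R5. The transcription factor genes SPIB and BCL6 were at 6.17 and 5.85, against 8.72 and 8.46, and at 5.92 and 5.55, against 8.08 and 7.92. All 3 were undetected in MM.1S. The same pattern held on the PRIMA-1Met arrays, where CD3D was at 4.98 and 4.49 in MM.1S and 12.04 and 11.94 on the arrays labelled 8226R5, and JCHAIN at 13.29 and 13.25 in MM.1S and 4.89 and 5.47 on those arrays. All 4 arrays with the 8226R5 label therefore carried it, and the name is used below only as the label of those arrays. What line they hold was not tested.

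**Figure D1:**
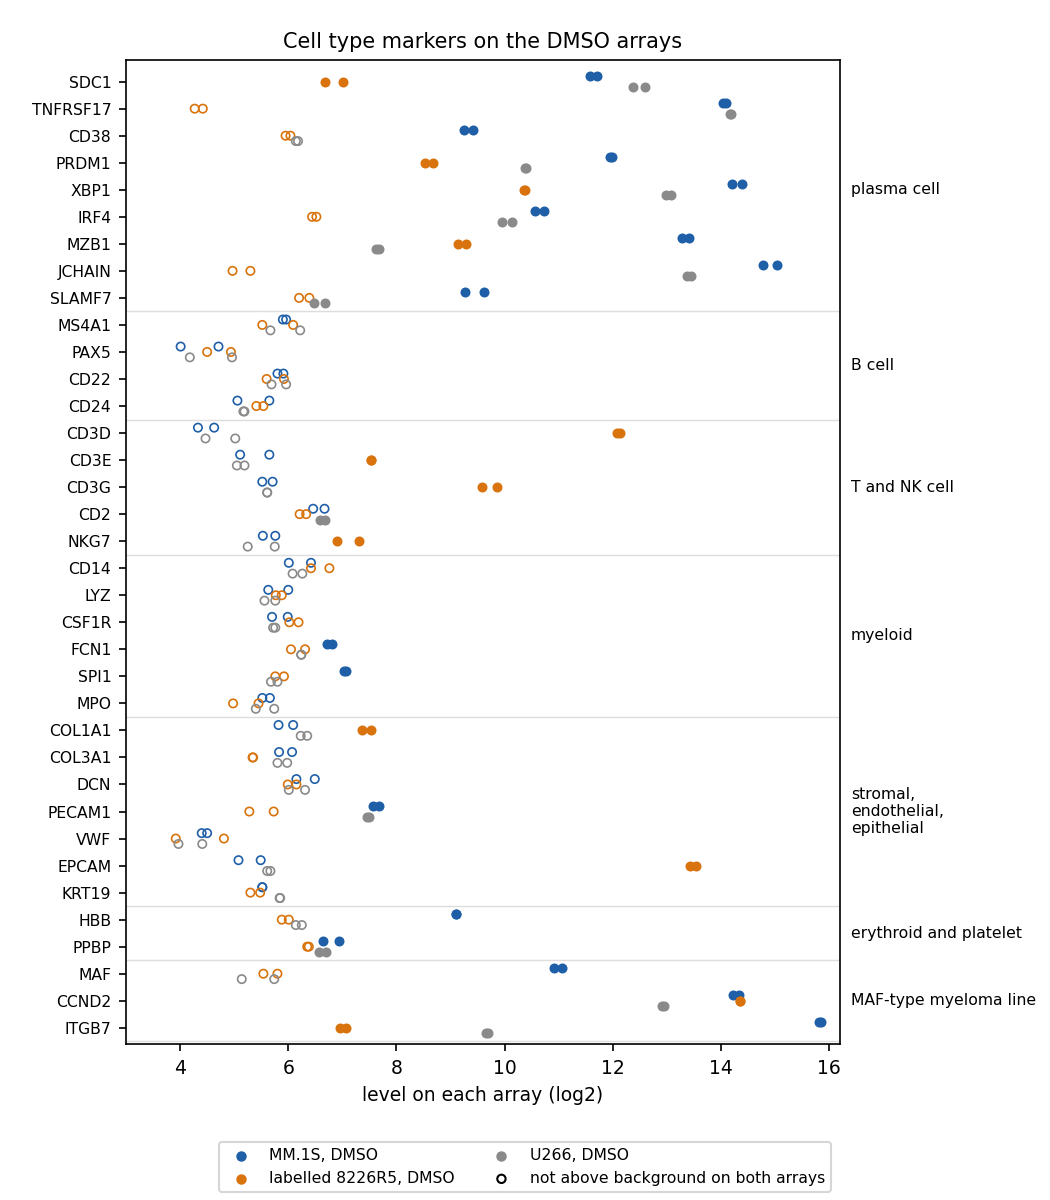
Level (log2) of the cell type markers on each DMSO array, 2 points a line, with open points where the gene was not above background on both arrays. MM.1S and U266 carry most plasma cell markers, and the arrays labelled 8226R5 stand apart at CD3D, CD3G and EPCAM and lack JCHAIN and TNFRSF17.

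Replicate arrays lay close together beside the distance between lines. Across the 10787 tested genes the correlation of levels was 0.996 within MM.1S, 0.996 within the arrays labelled 8226R5 and 0.805 to 0.806 between them. U266 correlated with MM.1S at 0.839 to 0.84 and with the arrays labelled 8226R5 at 0.774 to 0.775. These are descriptions across genes, which are not independent replicates. The detected probes numbered 15010 and 15389 on the MM.1S arrays, against 14336 and 14164 on the arrays labelled 8226R5 (detection p under 0.01). Array number limits the precision, and bulk RNA cannot tell fewer cells of a type from less RNA per cell.

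Of the 10787 genes, 8006 were called at a limma adjusted p under 0.05, a background of 74.2% of all genes. Higher in MM.1S were 4030 genes (37.4%) and lower 3976 (36.9%). Called genes with at least a 2-fold difference came to 2943 (27.3%), of which 1445 were higher in MM.1S (13.4%) and 1498 lower (13.9%). At 8-fold or more, 185 were higher and 253 lower, and at 32-fold or more 36 were higher and 52 lower. The median absolute difference over all genes was 0.53 on the log2 scale, against a median standard error of 0.09. Genes detected on both arrays of MM.1S and on neither labelled 8226R5 numbered 879, and 793 were detected only on the arrays labelled 8226R5. A further 598 tested genes were above background on no array of either line and passed the filter through U266. Both arrays of one line lay beyond both of the other for 9324 genes (86.4%). Among the 2943 genes, U266 lay nearer MM.1S for 1802 (61.2%) and nearer the arrays labelled 8226R5 for 1141.

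**Figure D2:**
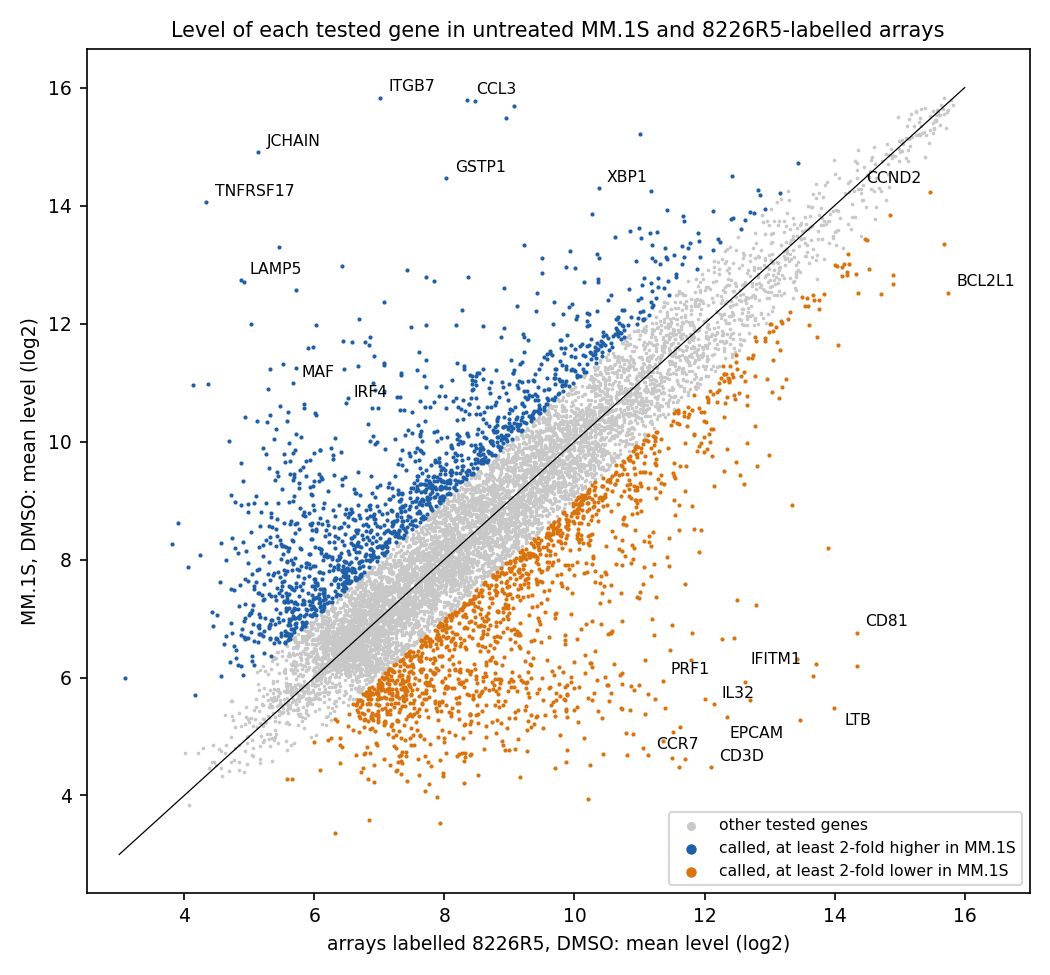
Mean level (log2) of each tested gene in MM.1S (vertical) and on the arrays labelled 8226R5 (horizontal), 2 arrays each, with genes called and at least 2-fold different in colour. JCHAIN, TNFRSF17 and ITGB7 lie far above the diagonal, LTB, EPCAM and CD3D far below it, and CCND2 on it.

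The 12 genes with the highest difference, MM.1S minus the arrays labelled 8226R5, included plasma cell genes, ITGB7 and chemokines. JCHAIN, which joins the units of secreted IgA and IgM, was at 14.78 and 15.03 on the MM.1S arrays, against 4.97 and 5.30 on the arrays labelled 8226R5, where it was not above background. It was at least 315-fold higher in MM.1S, where the bound sets an undetected group at the lowest detected level. TNFRSF17 was at 14.09 and 14.03 in MM.1S, against 4.42 and 4.27, and was at least 175-fold higher (limma adjusted p = 6.25e-10). ITGB7, a subunit of a gut-homing integrin, was at 15.82 and 15.84 in MM.1S and 6.95 and 7.07 on the arrays labelled 8226R5. That difference was 8.82 ± 0.08 on the log2 scale (SE, n = 2 arrays a line), or 451-fold. LAMP5 was at 12.69 and 12.78 in MM.1S and 4.69 and 5.06 on the arrays labelled 8226R5, at least 70.3-fold higher, and was also undetected in U266. The deubiquitinase UCHL1 was at 13.44 and 13.17 in MM.1S and 5.39 and 5.53 on the arrays labelled 8226R5, at least 104-fold higher. The TACI receptor TNFRSF13B was at 11.95 and 12.03 in MM.1S and 5.23 and 4.83 on the arrays labelled 8226R5, at least 41.9-fold higher. The chemokine CCL3 was at 15.84 and 15.73 in MM.1S and 8.31 and 8.40 on those arrays, 173-fold higher, and its near-identical copies CCL3L1 and CCL3L3 cannot be told apart from it on such probes with certainty. The delta globin HBD was at 12.61 and 12.54 in MM.1S and 5.99 and 5.44 on the arrays labelled 8226R5, at least 62.7-fold higher.

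The 12 genes with the lowest difference included genes of T cells, epithelium and the interferon response. LTB, lymphotoxin beta, was at 5.54 and 5.42 on the MM.1S arrays, against 14.00 and 13.96 on the arrays labelled 8226R5, at least 182-fold lower in MM.1S. EPCAM was at 5.08 and 5.49 in MM.1S and 13.53 and 13.42 on those arrays, at least 128-fold lower (limma adjusted p = 3.09e-09). CD3D, a chain of the T cell receptor complex, was at 4.63 and 4.33 in MM.1S and 12.13 and 12.07 on the arrays labelled 8226R5, at least 49.2-fold lower. All 3 were undetected in MM.1S. Arrays of the lines that did not overlap were a condition for naming these 12 genes, as for the 12 highest. The calcium-binding protein S100A4 was at 6.36 and 6.10 in MM.1S and 13.65 and 13.78 on those arrays, at least 151-fold lower, while U266 had 12.99 and 13.07. CD81, a tetraspanin of the B cell co-receptor, was at 6.79 and 6.73 in MM.1S, against 14.38 and 14.30, a 191-fold difference. The early activation marker CD69 was at 4.25 and 4.99 in MM.1S, against 11.72 and 11.68, by the probe used, with -2.92 on a second probe. Phosphofructokinase PFKP was at 4.68 and 4.29 in MM.1S and 11.69 and 11.52 on those arrays, and at 11.11 and 11.32 in U266.

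The plasma cell list had 19 tested members, of which 17 were higher in MM.1S, 1 was lower and 1 was not called, with a median difference of 3.37, against -0.00 over all genes. The share higher was 89.5%, against 37.4% of all genes. The 9 members undetected in a single line can pass the filter through the other, which largely fixes their direction. XBP1, the transcription factor of the secretory programme, was at 14.21 and 14.39 in MM.1S, against 10.36 and 10.38 on the arrays labelled 8226R5, a difference of 3.92 ± 0.09. PRDM1 was at 11.99 and 11.95 in MM.1S and 8.68 and 8.52 on those arrays, a difference of 3.37 ± 0.08. IRF4 was at 10.73 and 10.56 in MM.1S, against 6.52 and 6.44, at least 16.5-fold higher. SDC1 was at 11.70 and 11.58 in MM.1S, against 7.01 and 6.68, by the probe used, while a second SDC1 probe was above background in MM.1S alone and differed by 0.34. The lower member was CD79A, a signalling chain of the B cell receptor that was undetected in MM.1S, at 6.42 and 6.17 in MM.1S and 8.72 and 8.68 on the arrays labelled 8226R5. The immunoglobulin-like gene IGLL1 differed by 6.54 on the probe used and by -0.83 on a second one, which was undetected in MM.1S.

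For MAF and its reported targets, 9 of 10 tested members were higher in MM.1S and none was lower, with a median of 2.82, or 2.16 with the 5 members undetected on the arrays labelled 8226R5 at their bound. The share higher was 90%, against 37.4% of all genes. The 5 undetected members can pass the filter through MM.1S, which largely fixes their direction. DEPTOR, an inhibitor of mTOR kinase, was at 11.05 and 10.75 in MM.1S, against 4.71 and 5.85 on the arrays labelled 8226R5, at least 19.6-fold higher. CCR1 was at 9.47 and 9.38 in MM.1S, against 5.68 and 5.19, at least 7.07-fold higher. MAF was at least 20.8-fold higher, and a second MAF probe was likewise above background in MM.1S alone. The member that was not called was CCND2, at 14.34 and 14.22 in MM.1S and 14.36 and 14.35 on the arrays labelled 8226R5. Its difference was -0.07 ± 0.08 (limma adjusted p = 0.441), and the level was high on all 4 arrays. CCND3 was at 11.05 and 11.11 in MM.1S and 12.24 and 12.27 on the arrays labelled 8226R5. CCND1, high in U266 at 14.47 and 14.55, was at 8.02 and 8.02 in MM.1S and 8.90 and 8.90 on the arrays labelled 8226R5.

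Genes for the endoplasmic reticulum chaperones and unfolded protein response, which fold secreted proteins, were mostly higher in MM.1S: 23 of 28 tested members higher, 5 lower, none not called, median 1.08. Those higher were 82.1% and those lower 17.9%, against 37.4% and 36.9% of all genes. EDEM1, which pulls misfolded glycoproteins out of folding, was at 10.63 and 10.55 in MM.1S, against 8.27 and 8.16 on the arrays labelled 8226R5, a difference of 2.37 ± 0.08. The signal sequence receptor subunit SSR2 was at 12.71 and 12.70 in MM.1S, against 10.33 and 10.39, by the probe used, with 0.76 and 1.08 on other probes. The members lower in MM.1S included DDIT3, the stress-induced factor CHOP, at 7.94 and 7.90 in MM.1S, against 10.64 and 10.62, and CRELD2 at 11.08 and 10.96, against 12.26 and 12.35. The list name covers both folding genes and stress-induced ones, and its members did not all run one way.

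Interferon-response genes were mostly lower in MM.1S: 8 of 28 tested members higher and 20 lower, median -1.25, against 36.9% of all genes called lower. ISG15, a ubiquitin-like protein induced by interferon, was at 6.82 and 6.69 in MM.1S and 11.76 and 11.84 on the arrays labelled 8226R5, with U266 at 11.74 and 11.85. IFITM1, a membrane protein that restricts viral entry, was at 5.96 and 6.08 in MM.1S and 13.61 and 13.73 on those arrays, at least 146-fold lower. IFITM genes are near copies, so their probes may read one another. Going the other way, the exonuclease gene ISG20 was at 12.32 and 12.27 in MM.1S and 9.09 and 9.13 on those arrays, and tetherin BST2 at 11.05 and 10.98 in MM.1S, against 8.76 and 8.68. The promoters of 3 of these genes are shown because both directions carry the same motif, the interferon-stimulated response element, taken as GAAA, any 2 bases and GAAA, searched on both strands, with overlapping matches counted, in 250 bases before and 50 after the gene start (RefSeq, GRCh38.p14). Matches are in capitals.
ISG15, chr1:1013247-1013546, plus strand: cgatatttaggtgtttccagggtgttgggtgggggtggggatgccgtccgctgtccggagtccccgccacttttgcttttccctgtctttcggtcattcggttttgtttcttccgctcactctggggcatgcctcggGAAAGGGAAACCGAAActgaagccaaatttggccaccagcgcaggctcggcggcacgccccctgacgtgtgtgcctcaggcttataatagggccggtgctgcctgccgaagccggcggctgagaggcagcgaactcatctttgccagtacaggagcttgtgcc
IFITM1, chr11:313790-314089, plus strand: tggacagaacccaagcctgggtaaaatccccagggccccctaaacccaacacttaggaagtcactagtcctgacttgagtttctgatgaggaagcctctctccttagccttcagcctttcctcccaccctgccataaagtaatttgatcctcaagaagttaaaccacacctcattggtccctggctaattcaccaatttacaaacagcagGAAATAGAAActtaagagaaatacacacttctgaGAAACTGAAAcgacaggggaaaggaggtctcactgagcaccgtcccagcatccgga
ISG20, chr15:88638766-88639065, plus strand: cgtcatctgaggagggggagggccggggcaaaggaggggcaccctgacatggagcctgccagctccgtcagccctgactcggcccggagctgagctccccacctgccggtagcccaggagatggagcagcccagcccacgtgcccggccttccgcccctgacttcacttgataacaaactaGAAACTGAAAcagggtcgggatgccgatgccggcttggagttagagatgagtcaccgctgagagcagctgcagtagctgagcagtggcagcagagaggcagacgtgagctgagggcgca
The motif was in 996 of 27305 promoters in the table (3.65%) and in 15 of the 21 promoters of the list that the table held. It stood in 4 of the 7 promoters of members higher in MM.1S and in 11 of the 14 of members lower, which describes the letters and no binding.

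The T cell and NK cell list had 12 tested members, 10 lower in MM.1S and 2 higher, median -2.30, or -1.23 with the 10 members undetected in one line at their bound. Those lower were 83.3% and those higher 16.7%, against 36.9% and 37.4% of all genes. Detected members numbered 9 on the arrays labelled 8226R5 and 2 in MM.1S. A member can pass the filter through the line where it is high, so these shares are no support for a direction. PRF1, the pore-forming protein of killer cells, was at 5.75 and 6.15 in MM.1S and 11.33 and 11.38 on the arrays labelled 8226R5, at least 29.4-fold lower. CD5 was at 3.79 and 3.29 in MM.1S and 7.95 and 7.90 on those arrays. Against the rest, the co-stimulatory receptor CD28 was at 9.98 and 9.98 in MM.1S and 5.86 and 5.36 there, at least 10.4-fold higher. CD2, above background on 1 MM.1S array and on neither labelled 8226R5, was higher by 0.29 ± 0.10 (limma adjusted p = 0.0259), and missed the test without MM.1S array 2 (limma adjusted p = 0.157) and without array 2 labelled 8226R5 (limma adjusted p = 0.125). Further genes known from T cells, chosen after their values were seen, were lower in MM.1S and undetected there: CD6 was at least 32.4-fold lower, GATA3 at least 6.39-fold and BCL11B at least 3.77-fold. Picked this way, they are examples and no added support for the list. The chemokine receptor CCR7 was at 4.97 and 4.39 in MM.1S and 11.17 and 11.08 on the arrays labelled 8226R5, at least 25.1-fold lower. The cytokine IL32 was at 5.51 and 5.58 in MM.1S, against 12.17 and 12.11, and the interleukin receptor chain IL2RB at 5.86 and 6.29, against 10.80 and 10.65.

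Of NF-kB subunits, regulators and targets, 7 of 24 tested members were higher in MM.1S (29.2%) and 16 lower (66.7%), against 37.4% and 36.9% of all genes, median -0.91. LTA, lymphotoxin alpha, was at 8.22 and 8.19 in MM.1S and 13.88 and 13.91 on the arrays labelled 8226R5, a difference of -5.69 ± 0.07. The adaptor TRAF1 was at 5.95 and 6.13 in MM.1S, against 10.57 and 10.83, by the probe used, with -1.50 on a second probe. The subunit precursor NFKB2 went the other way, at 8.97 and 8.96 in MM.1S and 5.17 and 5.72 on those arrays, at least 5.14-fold higher. TRAF3, a brake on the noncanonical pathway, was not called (-0.15 ± 0.09, limma adjusted p = 0.167).

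HLA class II genes and their loading factors had 11 of 14 members lower in MM.1S (78.6%) and 1 higher (7.14%), against 36.9% and 37.4% of all genes. Their median was -0.98, or -0.77 with the 5 members undetected in one line at their bound. HLA-DMB, which loads peptide, was at 8.53 and 8.48 in MM.1S and 11.64 and 11.59 on the arrays labelled 8226R5. The protease CTSS ran the other way, at 7.63 and 7.72 in MM.1S and 6.11 and 6.14 there. HLA genes have near-identical copies, and 2 HLA-DRB4 probes differed by -3.32 and -3.37 while the other, not above background on both arrays of either line, gave 0.03. In class I and antigen processing, 4 of 15 were higher and 7 lower, a share called (73.3%) near the 74.2% of all genes, with the peptide transporter TAP1 at 10.98 and 10.87 in MM.1S, against 13.20 and 13.19. S100 proteins and annexins had 10 of 14 lower (71.4%) and 3 higher (21.4%), against the same 36.9% and 37.4%. Their median was -1.32, or -1.05 with the 4 members undetected in one line at their bound. S100P was at 5.07 and 5.10 in MM.1S and 11.48 and 11.55 on the arrays labelled 8226R5, and S100A11 at 11.78 and 11.54 in MM.1S and 10.21 and 10.03 there.

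p53 targets were examined because the labels give p53 as wild type in MM.1S and null in 8226R5. Of 22 tested members 11 were higher in MM.1S, 8 lower and 3 not called, median 0.23, against 37.4% and 36.9% of all genes called in each direction. MDM2, the ligase that degrades p53, was at 6.80 and 6.77 in MM.1S and 5.92 and 5.83 on the arrays labelled 8226R5, where it was undetected, at least 1.13-fold higher. The cell cycle inhibitor CDKN1A was at 11.18 and 11.22 in MM.1S and 11.74 and 11.86 there, lower by 0.60 ± 0.09 in MM.1S. TP53INP1 was at 11.31 and 11.28 in MM.1S and 7.03 and 7.12 on those arrays, a difference of 4.22 ± 0.08. FAS, the death receptor, was lower: 6.53 and 6.35 in MM.1S, against 8.64 and 8.69. Its second MM.1S value lay below 6.456, the lowest detected level on that array, so the size is uncertain. The 2 classical targets MDM2 and CDKN1A therefore differed in opposite directions.

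Within the BCL2 family, 8 of 19 members were higher in MM.1S, 6 lower and 5 not called, median 0.17, and the share called, 73.7%, was near the 74.2% of all genes. The survival proteins split: MCL1 was at 10.55 and 10.55 in MM.1S and 8.30 and 8.20 on the arrays labelled 8226R5, a difference of 2.30 ± 0.08. BCL2L1, which encodes BCL-XL, was at 12.47 and 12.57 in MM.1S and 15.74 and 15.74 there, a difference of -3.22 ± 0.08, and U266 lay near MM.1S at 12.54 and 12.56. BCL2 was at 10.36 and 10.63 in MM.1S and 9.53 and 9.70 on those arrays. The BH3-only gene PMAIP1, or NOXA, was undetected in MM.1S, at 6.24 and 6.36, against 11.12 and 11.05, at least 24.3-fold lower by the probe used. A second PMAIP1 probe, also undetected in MM.1S, differed by -1.84.

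Glutathione, thioredoxin and NRF2 genes matter here because PRIMA-1Met products bind thiols. Of 40 tested members, 20 were higher in MM.1S, 9 lower and 11 not called, median 0.27, and the share called, 72.5%, was near the 74.2% of all genes. GSTP1, a glutathione transferase, was at 14.50 and 14.44 in MM.1S and 7.98 and 8.08 on the arrays labelled 8226R5, 86.7-fold higher. GPX1, a glutathione peroxidase, was at 6.82 and 6.48 in MM.1S and 12.28 and 12.26 there, 49.2-fold lower. Its second MM.1S value was near 6.456, the lowest detected level on that array, so the fold is uncertain. GSTP1 and GPX1, the extremes, lie in one system. NQO1, a quinone reductase controlled by NRF2, was at 8.73 and 8.48 in MM.1S, against 10.82 and 10.67. Of 10 tested metallothionein and zinc transport genes 2 were higher in MM.1S, 5 lower and 3 not called. The share called, 70%, was near the 74.2% of all genes. MT2A, which binds metal ions, was at 7.22 and 7.22 in MM.1S and 12.80 and 12.77 on those arrays, and metallothioneins are near copies, so their probes may read one another. The cystine transporter SLC7A11 was not analysed here.

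Genes of protein synthesis, turnover and division followed. Cytosolic ribosomal proteins had 17 of 37 called, 7 higher in MM.1S and 10 lower, 45.9% against 74.2% of all genes, with a median absolute difference of 0.18 against 0.53. Proteasome subunits, with 10 higher, 10 lower and 11 not called, had a median of 0.02, which turned to -0.03 under median scaling. Their share called, 64.5%, was below the 74.2% of all genes. Mitotic genes had 16 of 28 higher and 6 lower, median 0.32, with 78.6% called against 74.2% of all genes. DNA replication genes had 14 of 29 higher and 10 lower, median 0.13, with 82.8% called against 74.2% of all genes, and ran from -1.18 to 2.48. RRM2, the ribonucleotide reductase subunit, was at 11.03 and 10.91 in MM.1S and 8.38 and 8.59 on the arrays labelled 8226R5, while PCNA differed by -1.18. MYC was at 12.36 and 12.25 in MM.1S and 12.71 and 12.72 there, lower by 0.41 ± 0.10, with U266 at 6.99 and 7.21. Sterol synthesis and uptake had 11 of 19 higher and 2 lower, median 0.43, with 68.4% called against 74.2% of all genes. Lanosterol synthase LSS was at 10.99 and 11.11 in MM.1S, against 8.14 and 8.11, and squalene epoxidase SQLE at 7.74 and 7.74, against 10.07 and 9.93.

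**Figure D3:**
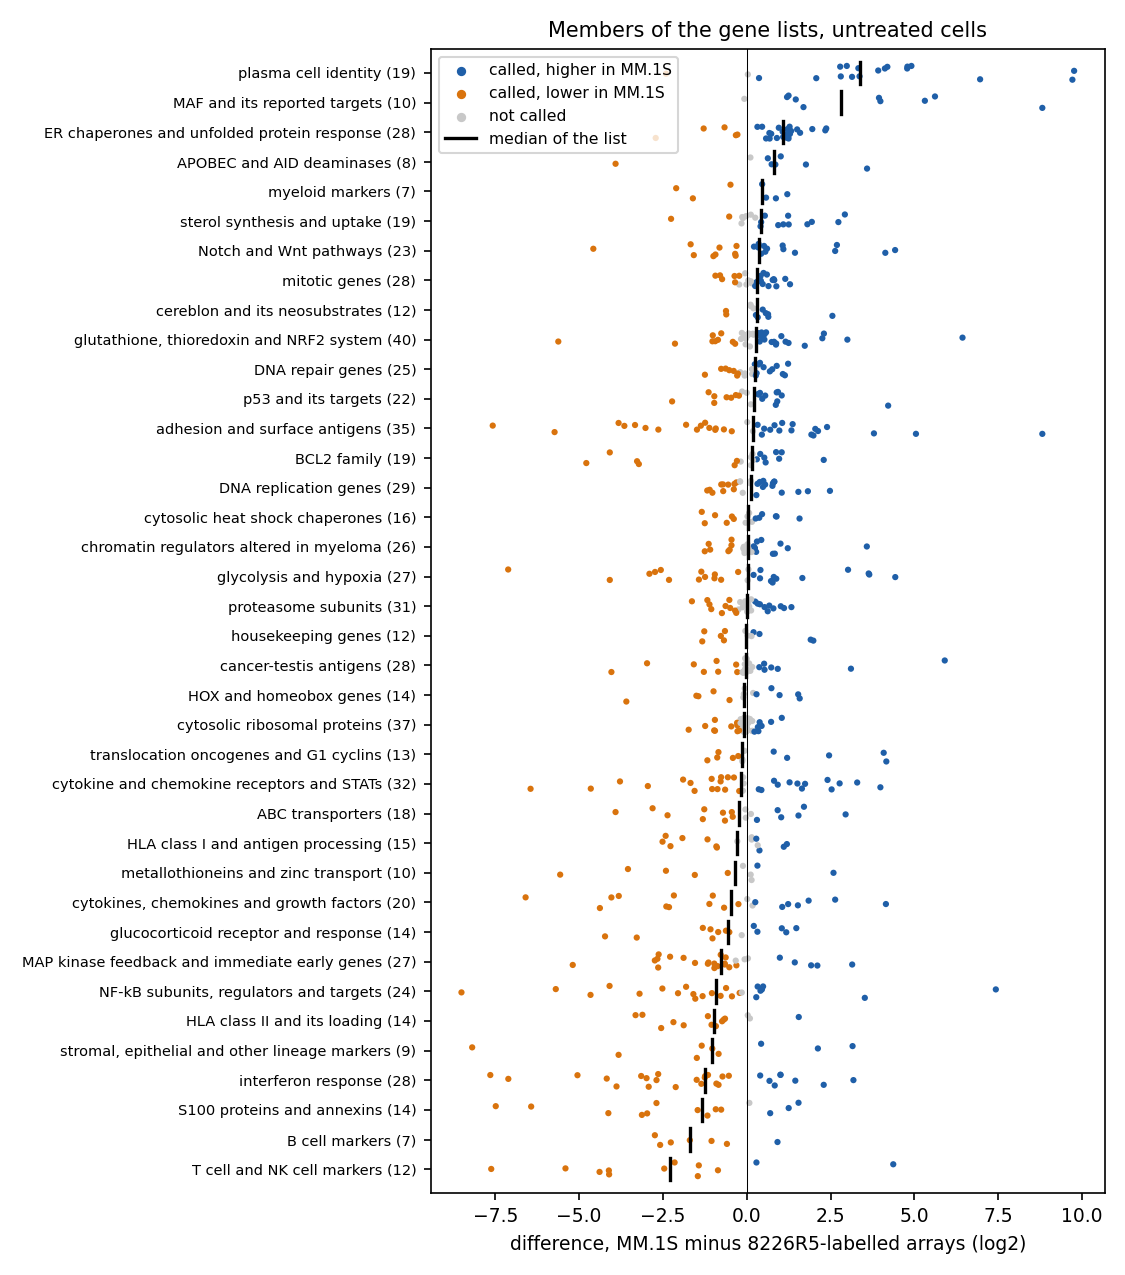
Difference (log2, MM.1S minus arrays labelled 8226R5) of every tested member of the gene lists with at least 5 tested members, with the number tested in brackets and the list median as a bar; members undetected in one line stand at the measured difference, not at a bound. Plasma cell and MAF lists lie highest (medians 3.37 and 2.82), T and NK cell markers lowest (median -2.30), and ribosomal proteins cluster near 0.

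Differences were unevenly spread over chromosomes, beside 37.4% of all genes called higher in MM.1S and 36.9% lower. Genes were placed by the RefSeq table (GRCh38.p14), since no source here states which build the probes follow. Chromosome 22 had 152 of 272 genes higher in MM.1S and 55 lower, median 0.41, and chromosome 21 had 68 of 116 higher and 20 lower, median 0.37. Chromosome 14 ran the other way, with 60 of 338 higher and 204 lower, median -0.43, and chromosome 13 had 37 of 185 higher and 100 lower, median -0.34. Medians were also below 0 on chromosomes 18 (-0.30), 20 (-0.28) and 6 (-0.24). Over 25 neighbouring genes the lowest median was -1.23, on chromosome 20, and the highest 1.26, on chromosome 12. Copy number was not measured here. Groups of at least 4 neighbouring genes that were each called and at least 2-fold different in one direction numbered 44, with 17 higher and 27 lower in MM.1S, a search added after the values were seen. They included the run LTA, TNF, LTB, LST1 and NCR3, the T cell receptor genes CD3E, CD3D and CD3G with their neighbours, and 2 runs of 5 killer-cell receptor genes (KIR), all lower in MM.1S. KIR genes are near copies, so their probes may read one another.

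**Figure D4:**
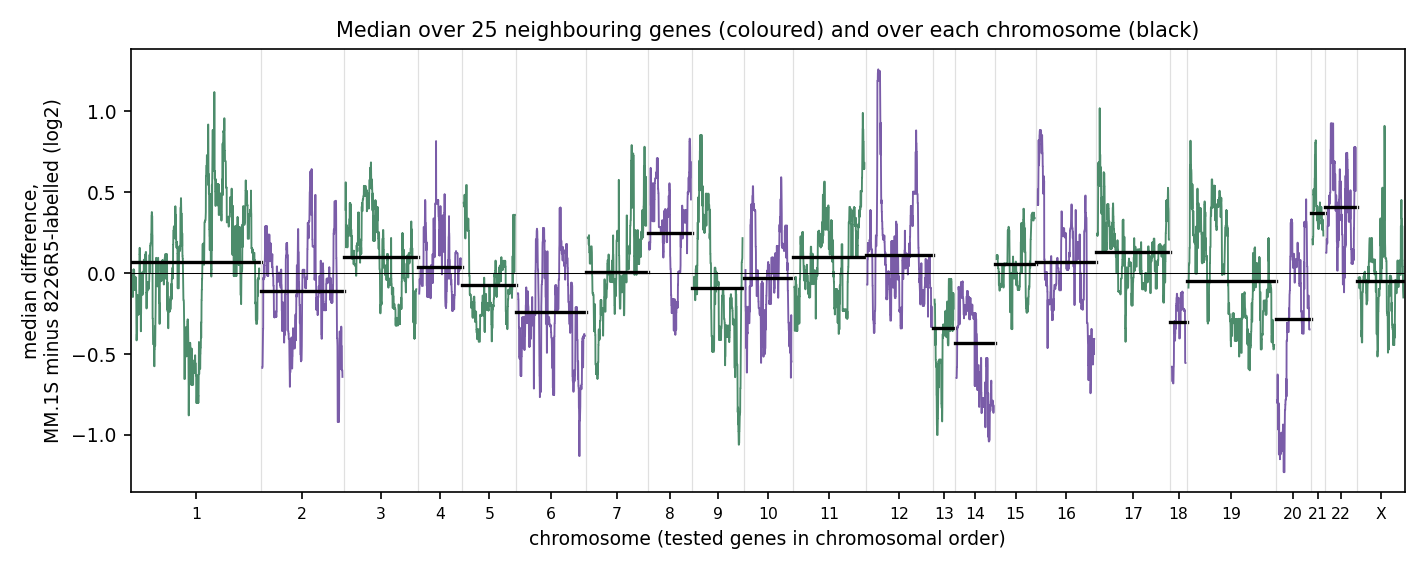
Running median difference (log2, MM.1S minus arrays labelled 8226R5) over 25 neighbouring tested genes in chromosomal order, with each chromosome's median in black. The medians of chromosomes 21 and 22 are among the highest and those of chromosomes 14, 13, 18, 20 and 6 the lowest, while the running median crosses 0 on chromosomes 22 and 20.

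The difference between lines was read again on the PRIMA-1Met arrays, which share no array with the DMSO ones. Doses differed between the lines and the MM.1S arrays were dimmer, with 11815 and 12093 probes detected, against 14988 and 15730 on the arrays labelled 8226R5, and the part of dose and depth in the result was not tested. There 8808 genes (81.7%) were called between the lines. Of the 2943 genes called and at least 2-fold different in DMSO, 2694 (91.5%) had the same sign there and 249 the opposite sign. Over all 8006 called genes the share was lower, with 6051 (75.6%) of the same sign and 1955 opposite. ITGB7 differed by 8.82 in DMSO and 8.15 in the PRIMA-1Met arrays, and IER3, a stress-response gene, by -5.19 and 1.13.

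**Figure D5:**
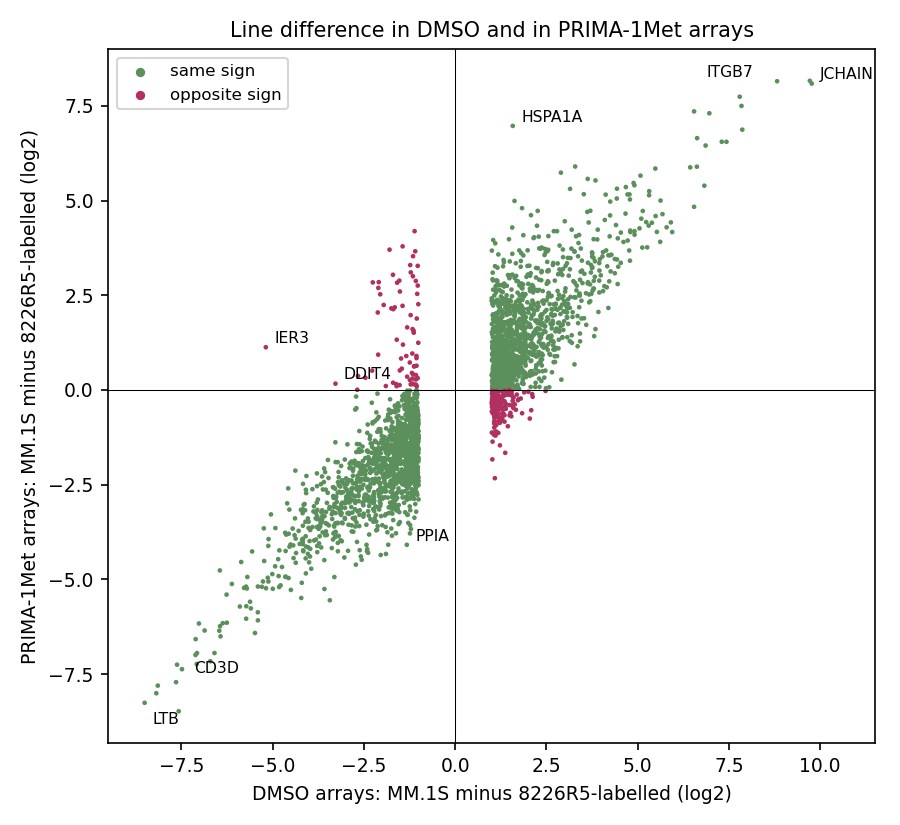
Difference between lines (log2, MM.1S minus arrays labelled 8226R5) in DMSO (horizontal) and in PRIMA-1Met (vertical) for the 2943 genes called and at least 2-fold different in DMSO. Genes undetected in one line stand at the measured difference. Most points (91.5%) lie in the quadrants of equal sign, and IER3 and DDIT4 are among those that do not.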

How the data were processed

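The authors deposited log2 values that are quantile normalized over the 12 arrays, per the file headers, and these were used as the main values. The deposited table of signals holds background-subtracted intensity values, and detection p-values that compare each probe with negative controls, per the file headers. BeadStudio, lumi and limma are named in the submitters' processing notes, without versions. Of the deposited signals, those of 9 arrays were displaced by 1 row from probe row 22924, and realignment raised the Spearman correlation with the deposited log2 values to 1. It left 47321 probes, of which 30111 had 1 gene symbol, 8 several and 17202 none.

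A probe entered if its detection p-value lay below 0.01 on 2 or more of 6 DMSO arrays, and the probe with the highest mean stood for each of the 10787 genes. A gene detected in a single line can pass through that line alone, so its direction is largely fixed and is no support in a list count. In 2708 genes several probes were kept, and in 4 of them probes differed at least 2-fold in opposite directions. Another probe of a gene could give a smaller difference, as for EPCAM with -8.19 on the probe used and -3.86 on another. One mean per line was fitted to the 6 DMSO arrays with limma 3.58.1 (R 4.3.3, lmFit and eBayes, two-sided), and p-values were adjusted by Benjamini-Hochberg over all genes. The code was tested on simulated data. A group undetected on both arrays was set, per array, to the higher of its own value and the lowest detected level for "at least" folds. Replicate numbers did not pair the samples (correlations of deviations -0.0049 to 0.0184).

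Named genes were the 12 highest and 12 lowest differences with arrays that did not overlap, up to 3 members a list in each direction, and 25 fixed genes, 22 of which were measured. Members and lists were chosen with earlier results of these data known. Errors after ± are SEs from the fit.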

Additional observations from a re-analysis of the deposited data

Results flagged for a closer look

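For 20 of the named genes the difference between MM.1S and the arrays labelled 8226R5 had one sign in DMSO and the opposite sign in PRIMA-1Met, with arrays that did not overlap in either. Of these, 13 were above background on all 8 arrays. The difference between the treatments was not tested, doses differed between the lines, and the treated MM.1S arrays were dimmer. Values are log2 differences, MM.1S minus the arrays labelled 8226R5, in DMSO and then in PRIMA-1Met. ZMAT3, a p53 target, had -1.14 and 1.51. The stress genes IER3, DDIT4 and HSPB1 had -5.19 and 1.13, -3.28 and 0.17, and -1.34 and 0.90. DNAJB1, a heat shock co-chaperone, had 0.87 and -0.20. The chromatin gene ARID1A had 1.01 and -0.45. Repair genes ERCC2 and ERCC5 had -0.76 and 0.38, and -0.63 and 0.76. B2M had 0.38 and -0.87, NFKB1 0.49 and -0.26, CYLD 0.29 and -0.15, ANXA2 0.70 and -0.18, and MYC -0.41 and 0.08.

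The other 7 had a line that was not above background on either array in at least 1 treatment, so the sizes below are differences between measured values at or near background. BCL2L2 (0.97 and -0.17) was above background on none of the 8 arrays, and its change of sign cannot be read. CTSS (1.55 and -0.41) and CD2 (0.29 and -0.29) were above background on no PRIMA-1Met array of either line, so their second value cannot be read either. EP300 (1.23 and -1.46), NR3C1 (1.05 and -0.60) and FCER1G (0.87 and -0.31) were undetected in MM.1S given PRIMA-1Met, and NR3C1 and FCER1G also on the DMSO arrays labelled 8226R5. FCGR3A (-0.48 and 2.78) was undetected in MM.1S in DMSO.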

How the results depend on the processing

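No named gene called in the main values or under an alternative that kept it changed sign between them. Changes of sign in genes called in neither were not counted. CD2, MT1E, CYLD, PPBP and ABCA2 passed the test in the main values and missed it under at least 1 alternative, and ABCA2 differed by -0.19 when no detection filter chose its probe. Requiring detection on all 4 arrays left 7763 genes, of which 1676 were called and at least 2-fold different, 860 higher and 816 lower in MM.1S, with fewer genes tested and no T or NK cell list member left. With no detection filter 38.8% of 20046 genes were called. With the replicate number as a block, 7997 genes were called, and CYLD was the named gene whose call was lost. Leaving out each array in turn, with the lone array of that line assumed to vary like the other lines, gave 7431 to 7501 called genes, 3732 to 3794 higher and 3699 to 3719 lower, and 2935 to 2968 at least 2-fold different, 1450 to 1471 higher and 1484 to 1503 lower. The same-sign share on the PRIMA-1Met arrays was 89.5% by neqc, 91.3% with signals plus 50 and 92.5% with median scaling, alternatives added after the data were seen, and the cause was not tested. The 8226R5 label covers all arrays of its group, so no count can be had without them. With 2 arrays a line, the number of arrays limits the precision, and levels near background give only bounds.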

Other observations

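Single genes of other groups also differed between the lines. The cancer-testis antigen MAGEA1 was at 11.21 and 11.24 in MM.1S and 5.33 and 5.31 on the arrays labelled 8226R5, at least 24.6-fold higher, while PAGE5 was at 4.71 and 5.02 in MM.1S and 8.91 and 8.89 there, at least 5.36-fold lower. Of 28 tested members of that list 7 were higher, 8 lower and 13 not called, with 53.6% called against 74.2% of all genes. The cytidine deaminase APOBEC3B was at 10.55 and 10.59 in MM.1S and 6.95 and 7.01 on the arrays labelled 8226R5, a difference of 3.59 ± 0.08. Of 8 tested deaminase genes 6 were higher in MM.1S (75%) and 1 was lower (12.5%), against 37.4% and 36.9% of all genes.

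The Wnt ligands WNT10A and WNT5B were higher in MM.1S, with WNT10A at 9.43 and 9.22, against 5.06 and 4.74 on the arrays labelled 8226R5, and WNT5B at 9.84 and 9.78, against 5.67 and 5.68. The Wnt inhibitor DKK1, known from myeloma bone disease, was at 8.29 and 8.12 in MM.1S, against 5.54 and 5.60, at least 3.04-fold higher. The Notch ligand JAG2 ran the other way, at 5.71 and 5.75 in MM.1S, against 10.31 and 10.31, at least 14.2-fold lower. Of 23 tested Notch and Wnt genes 14 were higher in MM.1S (60.9%) and 9 lower (39.1%), against 37.4% and 36.9% of all genes. Adhesion and surface antigens ran both ways, with 17 of 35 higher (48.6%) and 16 lower (45.7%). N-cadherin CDH2 was at 10.45 and 10.21 in MM.1S, against 5.37 and 5.19, at least 13.2-fold higher, and VCAM1 at 4.73 and 4.67, against 10.44 and 10.42, by the probe used, with -1.56 on a second probe that was also undetected in MM.1S. IKZF1, a target of cereblon-binding drugs, was at 8.88 and 8.81 in MM.1S, against 6.45 and 6.13, at least 4.74-fold higher, and cereblon itself (CRBN) at 8.84 and 8.91, against 8.21 and 8.24.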
